A study of Mus musculus with 13 samples.

Results

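The nucleosome remodelling and deacetylase complex (NuRD) was examined through 10 of its subunit genes, Chd3, Chd4, Hdac1, Hdac2, Mta1, Mta2, Mta3, Rbbp4, Rbbp7 and Mbd3, chosen by gene name as partners of Ikaros. All 10 could be measured and tested, out of 35734 genes in the authors' deposited table and 15655 genes tested here. Ikaros is the zinc finger transcription factor encoded by Ikzf1. The cells came from postnatal day 0 CD1 mouse retina, were dissociated and transfected in culture, and were sorted for GFP after 9 h. Control cells received GFP (4 libraries, 400000 cells per biological replicate) and Ikzf1 cells received a construct that joins Ikzf1 to GFP through an internal ribosome entry site (Ikzf1-IRES-GFP, 4 libraries, 300000 cells per biological replicate). Both groups thus share the strain, the dissociation, the transfection, the culture and the sort, and the control carries no transcription factor. The number of cells and the way GFP is expressed differ between the groups in every replicate, so their part cannot be told apart from that of Ikzf1. The promoter of the RNA-seq constructs and the number of retinas per replicate are not given in the sources used here. The Ikzf1 libraries hold overexpression from a plasmid at one time point, so they describe a brief gain of Ikaros and not its loss. CUT&RUN libraries of the same study were not used here.

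NuRD joins nucleosome remodelling and histone deacetylation in a single assembly. A CHD-family ATPase (Chd3, Chd4 or Chd5) moves nucleosomes, and the deacetylases Hdac1 and Hdac2 remove acetyl groups from histones. Mta proteins form the scaffold that holds the deacetylases, Rbbp4 and Rbbp7 are histone-binding WD40 proteins, and either Mbd2 or Mbd3 is present in a given complex, Mbd2 being the one that binds methylated DNA. Gatad2 proteins bridge the CHD subunit to the rest. In lymphocytes Ikaros is found in a complex with NuRD that contains Chd4, also called Mi-2beta. In the retina, Ikaros is known as a factor of early progenitors that favours early-born cell fates.

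Promoter windows are shown for the 4 members that rose with Ikzf1 and had an entry in the promoter table (Chd4, Hdac2, Rbbp7 and Mbd3, with both windows of Chd4), and for Chd5, the NuRD subunit with the largest rise. The table is built from RefSeq on GRCm38.p6, and a window runs from 250 bases before to 50 bases after a gene's start. Of the 10 members, 7 had an entry (8 windows), as did 5 of the other NuRD subunits (8 windows), while Chd3, Hdac1 and Mta3 had none. The letters searched were GGGAA, the core that Ikaros zinc fingers recognise, on both strands (TTCCC on the printed strand when it lies on the other), and the longer TGGGAA, which contains the first motif. Capitals mark GGGAA or TTCCC. The Chd5 window lies at chr4:152338401-152338700, the Hdac2 window at chr10:36974294-36974593, the Rbbp7 window at chrX:162760122-162760421 and the 2 overlapping Chd4 windows at chr6:125095731-125096030 and chr6:125095913-125096212, all on the plus strand. The Mbd3 window lies at chr10:80399482-80399781 on the minus strand. Of the 2 Chd5 windows, which start 3 bases apart, the first is printed.
Chd5: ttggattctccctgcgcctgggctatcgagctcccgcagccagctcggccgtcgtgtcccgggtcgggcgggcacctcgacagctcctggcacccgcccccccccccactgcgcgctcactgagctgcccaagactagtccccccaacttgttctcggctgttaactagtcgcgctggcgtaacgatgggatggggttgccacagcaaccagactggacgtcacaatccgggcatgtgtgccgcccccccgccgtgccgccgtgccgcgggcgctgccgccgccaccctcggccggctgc
Hdac2: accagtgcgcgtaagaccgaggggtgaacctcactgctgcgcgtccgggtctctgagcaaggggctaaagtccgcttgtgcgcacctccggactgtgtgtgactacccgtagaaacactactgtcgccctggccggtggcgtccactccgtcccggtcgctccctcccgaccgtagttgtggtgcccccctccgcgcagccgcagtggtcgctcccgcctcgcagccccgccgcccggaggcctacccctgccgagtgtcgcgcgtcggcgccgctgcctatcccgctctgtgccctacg
Rbbp7: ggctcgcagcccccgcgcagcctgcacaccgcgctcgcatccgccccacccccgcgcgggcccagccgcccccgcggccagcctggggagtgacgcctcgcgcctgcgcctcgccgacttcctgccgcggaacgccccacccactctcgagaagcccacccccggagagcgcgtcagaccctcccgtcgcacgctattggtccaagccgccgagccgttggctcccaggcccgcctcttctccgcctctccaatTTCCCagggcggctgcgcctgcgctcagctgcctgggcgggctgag
Mbd3: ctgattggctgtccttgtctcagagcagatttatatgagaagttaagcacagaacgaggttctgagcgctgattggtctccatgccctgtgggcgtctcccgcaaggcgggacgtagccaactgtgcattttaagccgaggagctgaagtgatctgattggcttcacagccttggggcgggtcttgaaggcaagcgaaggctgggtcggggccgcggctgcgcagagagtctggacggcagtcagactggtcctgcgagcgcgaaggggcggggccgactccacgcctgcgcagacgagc
Chd4, first window: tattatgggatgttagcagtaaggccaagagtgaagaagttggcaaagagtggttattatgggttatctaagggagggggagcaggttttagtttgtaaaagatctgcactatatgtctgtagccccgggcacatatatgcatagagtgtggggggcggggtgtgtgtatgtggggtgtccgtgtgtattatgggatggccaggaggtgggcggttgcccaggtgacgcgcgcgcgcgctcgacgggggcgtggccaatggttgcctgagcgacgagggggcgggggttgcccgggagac
Chd4, second window: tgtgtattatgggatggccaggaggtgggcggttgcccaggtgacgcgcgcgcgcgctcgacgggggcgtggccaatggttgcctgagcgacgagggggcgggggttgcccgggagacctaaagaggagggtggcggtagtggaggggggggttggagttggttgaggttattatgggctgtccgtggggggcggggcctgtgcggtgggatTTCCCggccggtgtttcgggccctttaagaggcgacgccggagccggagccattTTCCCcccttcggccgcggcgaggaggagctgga
GGGAA was present in 2 of the 8 member windows, those of Rbbp7 (1 match, also matching TGGGAA) and of Chd4 (2 matches in the second window and 0 in the first). The Hdac2, Mbd3 and Chd5 windows held none. Among all 32851 windows of the table, 62.7% held GGGAA and 25.6% held TGGGAA, so the motif was common in windows of this length. A match is a run of letters and not a measured binding site.

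The libraries held 21.4 to 30.5 M estimated counts of read pairs. Ikzf1 took 0.00723 to 0.00909% of the counts in the controls and 15.9 to 17.2% in the Ikzf1 libraries, with 66.7 to 84.4 CPM (counts relative to the TMM-scaled library size) against 170543 to 187113, so the targeted gene followed the labels in all 8 libraries. The share of counts taken by the plasmid transcript lowers every other gene's share, and library sizes were therefore scaled by trimmed means (TMM). With TMM the median log2 fold change over the tested genes was 0.00, and with unscaled library totals it was -0.21. The part of the calls that were higher with Ikzf1 went from 49.5% to 23.4%. TMM centres the log ratios of most genes near 0, so a median of 0.00 follows from the scaling and does not show that the scaling is right. Across the transcriptome 59.1% of tested genes passed the threshold (edgeR quasi-likelihood test, Benjamini-Hochberg adjusted p under 0.05), 29.3% higher and 29.8% lower with Ikzf1, and a call alone is therefore common. Cells were labelled as retinal progenitors, and progenitor markers summed to 2065 to 2231 CPM in the controls and 1578 to 1662 CPM with Ikzf1, with 8 of 12 lower and 1 (Pax6) higher. Markers of other cells were also present: rod precursor genes summed to 777 to 902 CPM in the controls and 446 to 509 CPM with Ikzf1, and amacrine and horizontal cell genes to 426 to 488 CPM and 402 to 428 CPM. The retinal ganglion cell list summed to 372 to 392 CPM in the controls and 198 to 214 CPM with Ikzf1, a fall that came from the neurofilament genes Nefl (117 to 18.8 CPM) and Nefm (226 to 94 CPM), while the other 6 of its 8 tested genes were higher, among them Pou4f1 (4.4 to 18.3 CPM), Sncg (2.64 to 21.3 CPM) and Rbpms (9.32 to 23.5 CPM). Proliferation genes summed to 1297 to 1417 CPM and 1415 to 1518 CPM. Endothelial genes summed to 403 to 473 CPM and 208 to 248 CPM, nearly all from Kdr (435 ± 32.8 CPM in the controls), while Cdh5, Tie1 and Emcn were too low to test. Microglial, astrocyte, pericyte and lens lists stayed at or below 7.07 CPM, pigment epithelium genes at or below 26 CPM, and 0 of 5 red blood cell genes could be tested. The part of these marker changes in the NuRD results was not tested, and in sorted bulk cells a change in the number of cells of a type and in RNA per cell cannot be told apart.

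With Ikzf1, 6 of the 10 NuRD members rose, 0 fell and 4 did not pass the test. Chd3, an ATPase subunit, rose 4.04-fold, and Mta3, the least abundant scaffold subunit, rose 2.08-fold. Hdac2, Mbd3, Rbbp7 and Chd4 rose by 1.26-fold, 1.17-fold, 1.15-fold and 1.08-fold. Hdac1, Mta1, Mta2 and Rbbp4 did not pass the test. The count of 6 higher out of 10 stood beside a background of 29.3% of all tested genes. The members' median log2 fold change was 0.16, beside 0.00 for all tested genes, a value that TMM sets. In 5 members, each Ikzf1 library lay above each control library, against 26.5% of all tested genes. Called rises of 1 or more on the log2 scale were seen in 2 members, against 4.94% of all tested genes. Only the calls for Chd3, Mta3 and Hdac2 were higher under each of the 18 alternative settings of normalisation, filter, tool and libraries. The other members had small differences, and some signs depended on the scaling: with unscaled library totals, Chd4, Rbbp7, Hdac1, Mta1 and Mta2 turned negative and Mbd3 was at 0.01, beside that median of -0.21 over all genes.

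**Figure D1:**
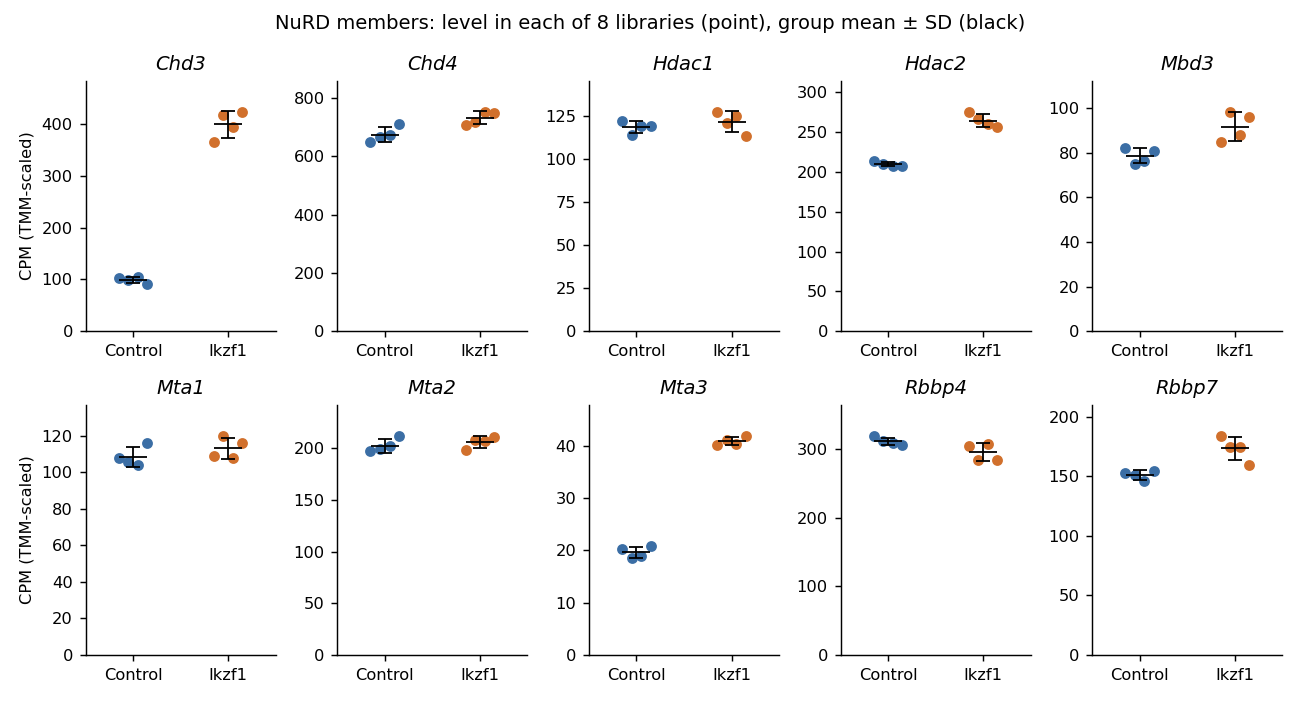
Level of each NuRD member in CPM with TMM scaling (vertical axis, from 0) in 4 control and 4 Ikzf1 libraries, 1 point per library, with the group mean and SD in black. Chd3 and Mta3 stand far apart between the groups, Hdac2 is separate by a smaller step, and Chd4, Hdac1, Mta1, Mta2 and Rbbp4 overlap.

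Chd3 (ENSMUSG00000018474, GRCm38 chromosome 11, 69343273 to 69369406, minus strand) encodes the Mi-2alpha ATPase. It was measured at 102, 99.1, 104 and 90.7 CPM in control libraries 1 to 4 and at 365, 417, 394 and 423 CPM in Ikzf1 libraries 1 to 4. Every Ikzf1 library lay far above every control library, and the coefficient of variation was 5.91% in the controls and 6.51% with Ikzf1. The log2 fold change was 2.02 (SE 0.05, edgeR adjusted p 7.1e-22), and 1.18% of all tested genes rose more. Its flanking genes did not share the size of this change: Rnf227, 631 bases away on the opposite strand, rose by 0.58 on the log2 scale (edgeR adjusted p 3.93e-06), and Cyb5d1, on the same strand, was at 0.16 (edgeR adjusted p 0.0638).

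Chd4 (ENSMUSG00000063870, chromosome 6, 125095981 to 125130591, plus strand) encodes the Mi-2beta ATPase. It was measured at 650, 666, 672 and 710 CPM in the controls and at 707, 719, 751 and 750 CPM with Ikzf1. Control library 4 reached into the range of the Ikzf1 libraries, so the groups overlapped. The log2 fold change was 0.12 (SE 0.04, edgeR adjusted p 0.022). This call was lost without control library 1 (adjusted p 0.0678), control library 2 (0.0681) or Ikzf1 library 3 (0.0666), all by edgeR, and with unscaled library totals the value was -0.09.

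The deacetylase Hdac2 (ENSMUSG00000019777, chromosome 10, 36974544 to 37001889, plus strand) was at 214, 210, 208 and 208 CPM in the controls and at 275, 266, 260 and 256 CPM with Ikzf1. The controls lay within a few CPM of each other and below all Ikzf1 libraries. The log2 fold change was 0.33 (SE 0.04, edgeR adjusted p 7.32e-08), a size exceeded in the same direction by 21% of all tested genes. Its paralog Hdac1 (ENSMUSG00000028800, chromosome 4, 129516104 to 129542713, minus strand) was at 122, 114, 119 and 119 CPM in the controls and at 127, 121, 125 and 113 CPM with Ikzf1. The groups overlapped and the log2 fold change was 0.04 (95% interval -0.05 to 0.13, edgeR adjusted p 0.494). A pseudogene, Hdac1-ps, is counted as a gene of its own, with a log2 difference of 0.02 (edgeR adjusted p 0.909), so the split of reads between the copy and Hdac1 is uncertain.

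Among the scaffold genes, Mta3 (ENSMUSG00000055817, chromosome 17, 83706163 to 83821516, plus strand) was at 20.2, 18.5, 19 and 20.9 CPM in the controls and at 40.2, 41.1, 40.4 and 41.9 CPM with Ikzf1. The Ikzf1 libraries were tightly grouped, with a coefficient of variation of 1.88%. The log2 fold change was 1.06 (SE 0.06, edgeR adjusted p 2.51e-14), and 4.64% of all tested genes rose more. Mta1 (chromosome 12, 113098278 to 113137206) was at 109 ± 5.43 CPM in the controls and 113 ± 5.53 CPM with Ikzf1 (SD, n = 4 each), for a log2 fold change of 0.06 (95% interval -0.03 to 0.15, edgeR adjusted p 0.286). Mta2 (chromosome 19, 8941875 to 8952303) was at 203 ± 6.45 and 206 ± 5.6 CPM (SD, n = 4 each), with 0.02 (95% interval -0.06 to 0.11, edgeR adjusted p 0.643). Both intervals leave out a change of the size seen for Mta3.

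Of the histone-binding subunits, Rbbp7 (ENSMUSG00000031353, chromosome X, 162760402 to 162779092, plus strand) was at 153, 151, 146 and 155 CPM in the controls and at 184, 175, 175 and 160 CPM with Ikzf1. The groups did not overlap, though Ikzf1 library 4 was close to control library 4. The log2 fold change was 0.20 (SE 0.04, edgeR adjusted p 0.000366). Rbbp4 (ENSMUSG00000057236, chromosome 4, 129307100 to 129335370, minus strand) was at 319, 311, 309 and 306 CPM in the controls and at 305, 284, 308 and 284 CPM with Ikzf1. Its groups overlapped and the log2 fold change was -0.08 (95% interval -0.16 to 0.01, edgeR adjusted p 0.126). Rbbp4 shares 1460 bases with Sync on the opposite strand, which had a log2 fold change of 1.62, and Rbbp7 shares 174 bases with Txlng on the opposite strand, at 0.05. Strand use in counting is not given in the sources used here, so reads in those stretches could belong to either gene.

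Mbd3 (ENSMUSG00000035478, chromosome 10, 80392539 to 80399550, minus strand), whose protein lacks strong binding to methylated DNA, was at 82.3, 75.2, 76.5 and 80.8 CPM in the controls and at 84.7, 98.2, 88.1 and 96.3 CPM with Ikzf1. The groups did not overlap, with Ikzf1 library 1 close above control library 1. The log2 fold change was 0.22 (SE 0.05, edgeR adjusted p 0.000456).

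In the authors' deposited table the same 6 members had an adjusted p under 0.05, where 41.8% of the 19121 genes with an adjusted p did. That table gave log2 fold changes of 2.03 for Chd3, 1.10 for Mta3, 0.36 for Hdac2, 0.23 for Rbbp7, 0.16 for Chd4 and 0.15 for Mbd3. The 2 sources differed by at most 0.07 for a member.

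**Figure D2:**
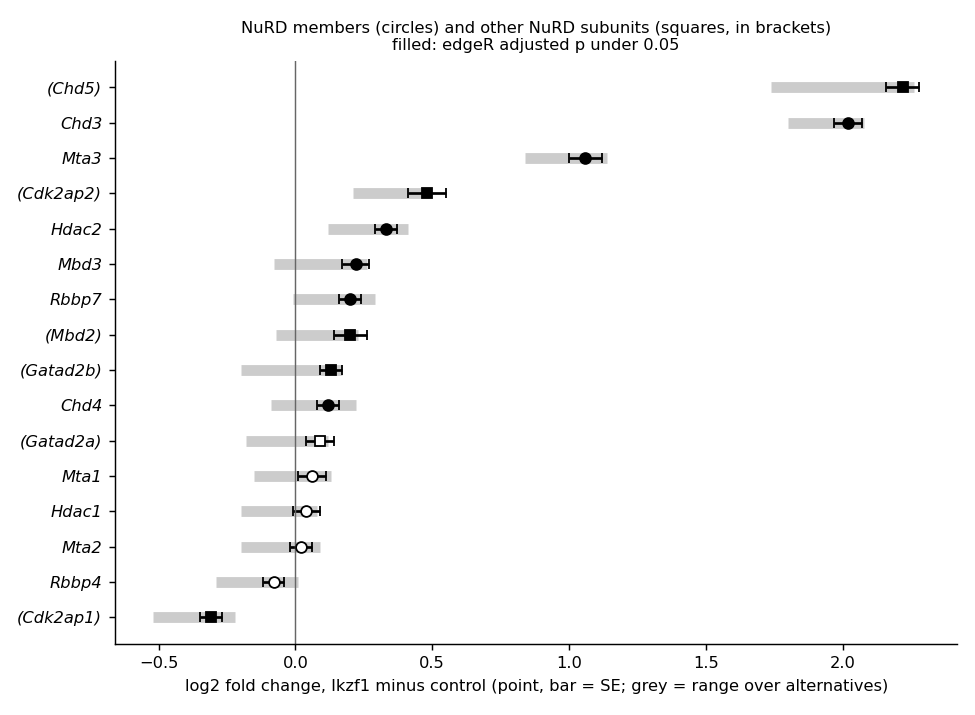
Log2 fold change, Ikzf1 minus control, for the 10 members (circles) and the other NuRD subunits (squares, names in brackets), with the SE as a bar, filled symbols for an edgeR adjusted p under 0.05 and grey for the range over the alternative settings. Chd5 (2.22), Chd3 (2.02) and Mta3 (1.06) lie apart from the rest, and the grey ranges of most small changes cross 0.

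Of the 6 other NuRD subunits listed, 4 rose and 1 fell, beside 29.3% and 29.8% of all tested genes. Chd5 (ENSMUSG00000005045, chromosome 4, 152338651 to 152390194, plus strand), the CHD ATPase known from neurons, was at 24.9, 22.7, 26 and 23.3 CPM in the controls and at 105, 120, 105 and 122 CPM with Ikzf1. All 4 Ikzf1 libraries lay far above the controls, and the log2 fold change was 2.22 (SE 0.06, edgeR adjusted p 2.05e-21). Cdk2ap2, a small accessory subunit, rose from 15.1 ± 0.251 to 21 ± 0.559 CPM (SD, n = 4 each; log2 fold change 0.48, edgeR adjusted p 1.98e-06). Its paralog Cdk2ap1 fell from 148 ± 4.98 to 119 ± 4.73 CPM (SD, n = 4 each; log2 fold change -0.31, edgeR adjusted p 7.04e-07). Mbd2, the methyl-DNA reader, rose by 0.20 (edgeR adjusted p 0.00363) and Gatad2b by 0.13 on the log2 scale (edgeR adjusted p 0.0108), while Gatad2a, at 0.09, did not pass (edgeR adjusted p 0.116). The Gatad2b groups overlapped. With transcript length as an offset, the calls for Gatad2b (0.03, edgeR adjusted p 0.696) and Mbd2 (0.15, edgeR adjusted p 0.0649) were lost. In the authors' deposited table Gatad2b (0.03, DESeq2 adjusted p 0.735) and Mbd2 (0.16, DESeq2 adjusted p 0.0616) did not pass either. Chd5, Cdk2ap1 and Cdk2ap2 passed there in the same direction, and Gatad2a did not pass. The median over these 6 genes was 0.17.

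Levels were set side by side between genes only in TPM, the relative abundance of transcripts corrected for their length. In the control libraries Chd4 was the most abundant member, at 256 ± 14.7 TPM, and was followed by Hdac2 at 221 ± 1.08, Rbbp4 at 214 ± 3.65 and Rbbp7 at 171 ± 8.75 TPM (SD, n = 4 each). Mta2 and Hdac1 came next, at 150 ± 6.83 and 147 ± 5.5 TPM, and were the only neighbours in the order whose control ranges overlapped. Mbd3 was at 131 ± 2.31, Mta1 at 89.8 ± 4.25, Chd3 at 55.7 ± 3.78 and Mta3 at 21 ± 1.43 TPM. In the Ikzf1 libraries Chd3 stood at 196 ± 17.6 TPM and moved from rank 9 to rank 3 of the 10 members, with a range that overlapped that of Rbbp4 (177 ± 16.8 TPM). Chd4 (244 ± 7.85 TPM) and Hdac2 (241 ± 6.69 TPM) overlapped at the top, and Mta3 (38.8 ± 2.35 TPM) remained last. TPM values were not rescaled for the plasmid transcript, which took 17 to 18.6% of all TPM in the Ikzf1 libraries, so TPM between groups carries that shift while ratios of genes within a library do not. A gene's TPM sums its transcripts, and short ones weigh more in it than in reads. With Ikzf1, Chd3 transcripts of 430, 747 and 1882 bases held 21.3%, 13.1% and 13.7% of its TPM. A 722-base transcript held 41.2% of Rbbp4. For Chd4, transcripts of 6652, 6537 and 1332 bases held 27.4%, 45.2% and 13.5%. The order of genes depends in part on these estimates.

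**Figure D3:**
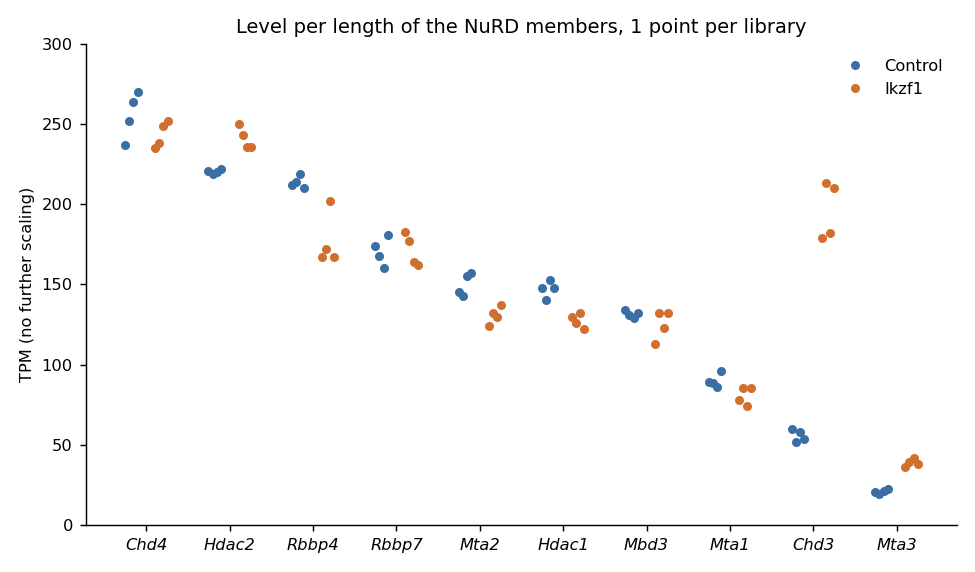
TPM of each member in the 4 control and 4 Ikzf1 libraries (1 point per library), ordered by the control mean. Chd3 rises from 55.7 TPM, near the bottom of the order, to 196 TPM, beside Rbbp4 and Rbbp7.

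Ratios between paralogs within a library do not depend on library scaling, and 6 of them were compared by an exact two-sided permutation test over the 8 libraries, with p adjusted over the 6 ratios. The smallest p this design allows is 0.0286. A ratio that reached it alone would not pass after adjustment over the 6. Each adjusted p of 0.0429 below therefore rests on several ratios reaching it together, and is not separate evidence for each. The ratio of Chd4 to Chd3 was 3.96, 4.88, 4.58 and 5.07 in the controls and 1.31, 1.12, 1.37 and 1.2 with Ikzf1. In gene TPM, Chd4 thus exceeded Chd3 in all 8 libraries, by a much smaller margin with Ikzf1, and the log2 ratio differed by -1.89 (exact permutation adjusted p 0.0429). The size of the ratio in each group depends in part on the short Chd3 transcripts counted in gene TPM. From estimated counts, the log2 difference of Chd4/Chd3 was -1.90. The ratio of Hdac1 to Hdac2 was 0.669, 0.636, 0.694 and 0.666 in the controls and 0.519, 0.519, 0.561 and 0.517 with Ikzf1, with no overlap (log2 difference -0.33, exact permutation adjusted p 0.0429). Mta2 exceeded Mta3 by 7.16 ± 0.255 in the controls and by 3.38 ± 0.201 with Ikzf1 (SD, n = 4 each; log2 difference -1.09, exact permutation adjusted p 0.0429). Mta1 exceeded Mta3 by 4.28 ± 0.239 and 2.09 ± 0.213 (SD, n = 4 each; log2 difference -1.04, exact permutation adjusted p 0.0429). The 2 ratios to Mta3 share that gene and are not independent. The ratio of Mta1 to Mta2 was 0.598 ± 0.0306 and 0.617 ± 0.0334 (SD, n = 4 each), with overlapping ranges (log2 difference 0.04, exact permutation adjusted p 0.429). The ratio of Rbbp4 to Rbbp7 was 1.22, 1.28, 1.36 and 1.16 in the controls and 0.911, 0.975, 1.23 and 1.03 with Ikzf1. Ikzf1 library 3 lay inside the control range, and the log2 difference of -0.28 did not pass (exact permutation adjusted p 0.103). Without that library it was -0.37 (exact permutation adjusted p 0.0343), and from estimated counts with all libraries it was -0.28 (exact permutation adjusted p 0.0343).

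**Figure D4:**
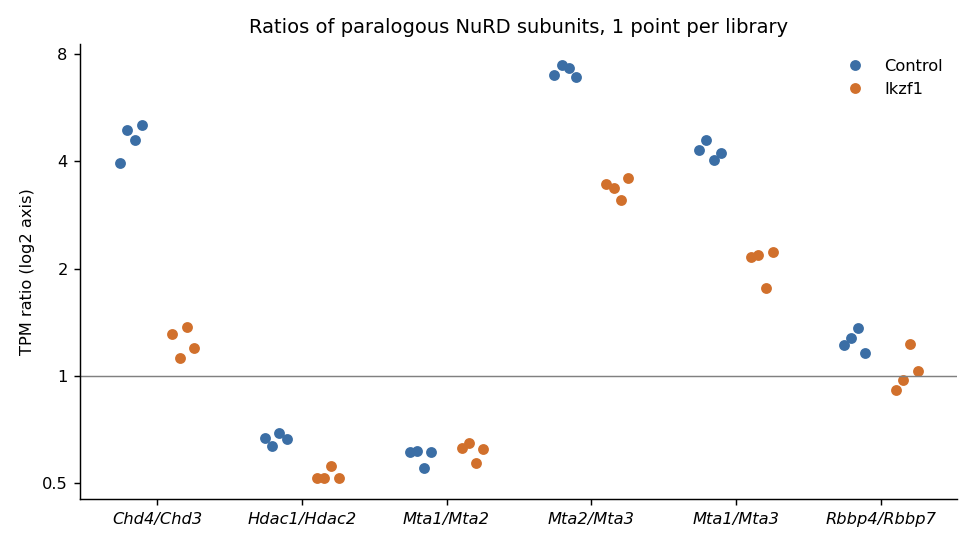
Ratio of the TPM of paralogous NuRD subunits in each library (log2 axis; blue, control; orange, Ikzf1). The Chd4/Chd3, Hdac1/Hdac2, Mta2/Mta3 and Mta1/Mta3 ratios are separate between the groups, and the Mta1/Mta2 and Rbbp4/Rbbp7 ratios overlap.

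The same values can be read as shares of each subunit class, given here as a description. Of the TPM of the 3 CHD ATPase genes, Chd4 made up 77.9 to 82.3% in the controls and 50.3 to 55.3% with Ikzf1. Chd3 made up 16.2 to 19.7% and 40.5 to 44.9%, and Chd5 1.49 to 2.43% and 4.28 to 4.75%. The Chd3 shares include its short transcripts, which weigh more in TPM than in reads. The summed CHD level was 317 ± 12.6 TPM in the controls and 461 ± 22.6 TPM with Ikzf1 (SD, n = 4 each). The summed HDAC level was 368 ± 5.99 and 369 ± 8.64 TPM, the MTA level 261 ± 10.6 and 250 ± 10.2 TPM, and the RBBP level 385 ± 5.16 and 349 ± 15.4 TPM (SD, n = 4 each), on the unscaled TPM scale. The MBD sum was 195 ± 4.38 and 185 ± 11.8, GATAD2 133 ± 6.53 and 117 ± 7.4, and CDK2AP 342 ± 10.6 and 257 ± 14.4 TPM (SD, n = 4 each). This scale lowers the Ikzf1 values of all these classes. With TMM, Hdac2 rose by 0.33 on the log2 scale and Mta1, Mta2 and Mta3 were at 0.06, 0.02 and 1.06. Within the MTA class, the share of Mta3 was 7.66 to 8.24% in the controls and 14.7 to 17% with Ikzf1. Within the MBD class, the share of Mbd3 was 66.1 to 69.4% and 66 to 68.7%, with overlapping ranges.

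Transcripts were followed to see whether a single one carried a gene's change. Of 10 Chd3 transcripts, 7 had a mean of at least 1 TPM, and all 7 were higher in every Ikzf1 library than in every control library. Among all 44230 transcripts of that level 4.98% were higher in this way and 21.6% lower. Those shares are on unscaled TPM, which the plasmid transcript lowers for all other genes. On the TMM scale, 26.5% of tested genes were higher in this way. The longest of the 5 with at least 10% of the gene's TPM, ENSMUST00000108661.7 (7261 bases), was at 19.2, 17.8, 18.2 and 16.1 TPM in the controls and at 47.1, 60.8, 56.1 and 64 TPM with Ikzf1. It held 32.1% ± 1.74 of the gene's TPM in the controls and 29% ± 2.09 with Ikzf1 (SD, n = 4 each; exact permutation adjusted p 0.371). For Mta3, 3 of 6 transcripts with at least 1 TPM were higher in every Ikzf1 library.

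Across the 8 members with several transcripts at 10% or more, 26 shares were tested and 0 passed (exact permutation test, Benjamini-Hochberg adjusted over the 26, smallest adjusted p 0.248), while 3 had an unadjusted p under 0.05. With 26 shares, 15 would have had to reach the smallest possible p together for any to pass, so a switch in a single gene could not have passed. Those 3 had the smallest p the design allows, 0.0286 by exact permutation. ENSMUST00000150105.1, an 803-base transcript of Hdac1, held 17.6, 18.1, 17.2 and 21.2% of the gene's TPM in the controls and 12.2, 14.1, 12.9 and 14.1% with Ikzf1. ENSMUST00000130926.7 of Mta1 held 18.5% ± 2.3 and 23.3% ± 0.747, and ENSMUST00000112326.7 of Rbbp7 held 11.1% ± 1.35 and 4.71% ± 3.33 (SD, n = 4 each). Lower levels in every Ikzf1 library were seen for 2 Hdac1, 2 Rbbp4, 1 Mta2 and 1 Rbbp7 transcripts, where 21.6% of all transcripts with at least 1 TPM were lower on this unscaled scale. ENSMUST00000109723.7 of Mta1 was estimated at 0% of the gene in control library 3 and Ikzf1 library 2 and at 14.6 to 22.5% in the other libraries, so shares of near-identical transcripts are uncertain estimates.

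**Figure D5:**
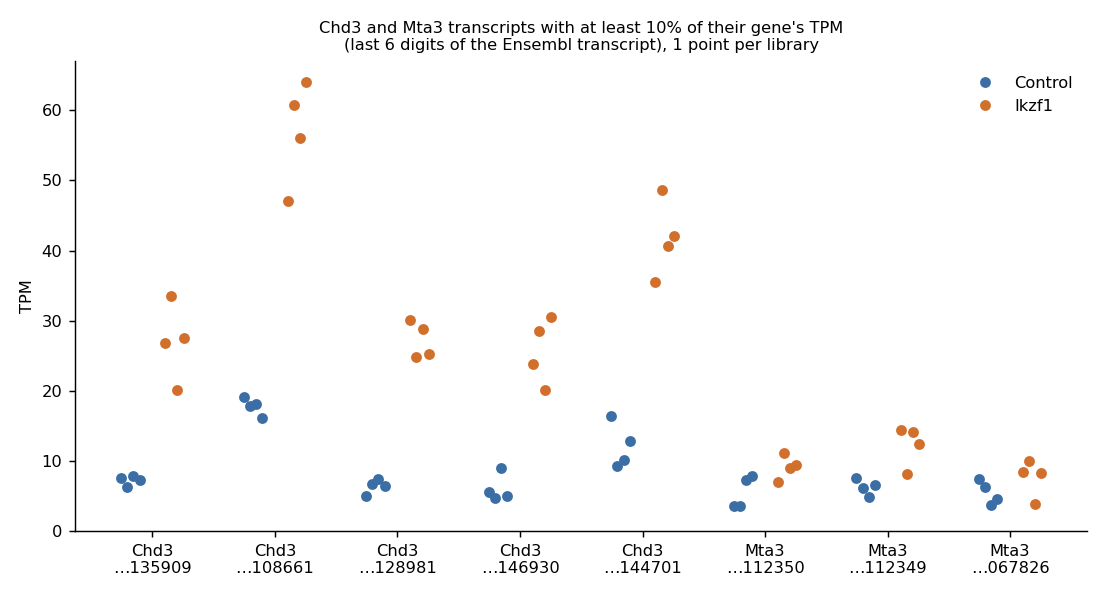
TPM of the Chd3 and Mta3 transcripts with at least 10% of their gene's TPM in each library (horizontal axis, the last 6 digits of the Ensembl transcript). All 5 Chd3 transcripts are higher in the 4 Ikzf1 libraries than in the controls, and the Mta3 transcripts overlap more.

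The genes most like Chd3 over the 8 libraries, by Pearson correlation of log2 CPM among 10102 genes with a mean of at least 10 CPM, were Shank3 (r = 0.9990), Chd5 (0.9987) and Zfp618 (0.9987). These values describe points that fall into 2 groups and carry no test. Shank3 encodes a postsynaptic scaffold protein and went from 14.1 ± 0.991 to 45 ± 3.42 CPM, and the zinc finger gene Zfp618 from 38.6 ± 1.74 to 101 ± 4.43 CPM (SD, n = 4 each).

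Of 15 NuRD-associated factors, proteins that bring NuRD to DNA or attach to it, 8 rose, 3 fell and 4 did not pass, beside 29.3% higher and 29.8% lower among all tested genes, with a median log2 fold change of 0.18. Sall proteins are zinc finger factors, several of which recruit NuRD. Sall1 went from 1.66 ± 0.445 to 13.9 ± 1.35 CPM (SD, n = 4 each; log2 fold change 3.07, edgeR adjusted p 3e-16), and Sall3 from 4.03 to 12.8 CPM (log2 fold change 1.66, edgeR adjusted p 2.96e-12). Sall4 was at 0.0381 ± 0.0514 CPM in the controls and 1.06 ± 0.491 CPM with Ikzf1 (SD, n = 4 each), and met the minimum of 1 CPM through the Ikzf1 libraries alone. Their relative Sall2 fell from 41.9 ± 1.97 to 21.8 ± 1.7 CPM (SD, n = 4 each; log2 fold change -0.94, edgeR adjusted p 7.83e-13). Pwwp2a, which binds a NuRD subcomplex without the remodeller, fell by 0.17 on the log2 scale (edgeR adjusted p 0.00786), and its paralog Pwwp2b rose from 5.57 to 12.5 CPM (log2 fold change 1.16, edgeR adjusted p 5.3e-10). Zfpm1 and Zfp512b of this list also rose, by 1.55 and 1.07 on the log2 scale (edgeR adjusted p 6.26e-13 and 1.31e-16). Sall3, Pwwp2b, Zfpm1, Zfp512b and, above, Rbpms were named after their values were seen.

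Other members of the Ikaros family and genes listed as other partners of Ikaros were read from the same fit. Ikzf2 (Helios) fell by 0.82 and Ikzf4 (Eos) by 0.63 on the log2 scale (edgeR adjusted p 1.06e-09 and 6.01e-07), and Ikzf3 was too low to test. Of 11 genes listed as Ikaros partners outside NuRD, 3 rose, 5 fell and 3 did not pass, with a median of -0.02. Whether each binds Ikaros was not checked here. Among all tested genes 29.3% were higher and 29.8% lower. The largest change in this list was the fall of Ctnnd1, whose place among the partners is uncertain, from 241 ± 13.6 to 70.9 ± 8.45 CPM (SD, n = 4 each; log2 fold change -1.76, edgeR adjusted p 5.99e-12). The corepressor Ctbp2 fell from 134 ± 5.2 to 83.7 ± 2.7 CPM (SD, n = 4 each; edgeR adjusted p 2.63e-13), and its paralog Ctbp1 rose from 178 ± 9.25 to 219 ± 8.01 CPM (SD, n = 4 each; edgeR adjusted p 1.79e-06).

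Complexes that share subunits or activities with NuRD are given by their counts, to be read beside 59.1% of all tested genes called, 29.3% higher and 29.8% lower. Of 17 genes of the Sin3 complex, which also uses the deacetylases and the histone-binding subunits (these were left out of the list), 8 rose and 3 fell (median 0.12). Of 10 CoREST genes 3 rose and 3 fell (median 0.04), with Rcor2 rising from 105 ± 7.48 to 223 ± 18.1 CPM (SD, n = 4 each; edgeR adjusted p 5.29e-13). Of 12 genes of PRC2 and CAF-1, which also use Rbbp4 or Rbbp7 (likewise left out), 6 rose and 3 fell (median 0.20), with Phf19 rising by 1.06 on the log2 scale (edgeR adjusted p 6.07e-12). Of 25 SWI/SNF remodeller genes 15 rose and 6 fell (median 0.15), and of 12 ISWI and INO80 genes 2 rose and 5 fell (median -0.03). Of 8 other CHD remodellers, 1 rose (Chd5) and 1 fell (Chd2, log2 fold change -0.32, edgeR adjusted p 9.51e-07), with a median of 0.01. Of 9 other histone deacetylases 3 rose and 3 fell (median 0.07). Hdac9 rose from 12 ± 1.19 to 28 ± 1.09 CPM (SD, n = 4 each; edgeR adjusted p 1.31e-13), and Hdac5 fell from 213 ± 3.13 to 96.1 ± 8.54 CPM (SD, n = 4 each; edgeR adjusted p 3.68e-17). Of 9 histone acetyltransferases 4 rose and 2 fell (median 0.06). The medians of the 10 NuRD members (0.16) and of the SWI/SNF genes (0.15) were thus of like size, and none of these lists was tested as a set.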

How the data were processed

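RNA-seq of 8 libraries (4 control, 4 Ikzf1) was analysed from paired-end data of a stranded, ribosome-depleted kit, per the labels' protocols. The deposited salmon files gave an estimated count and a TPM value for each transcript, per the file headers. The deposited DESeq2 table of the authors listed for every gene a mean signal (normalised counts), a log2 fold change, its standard error and raw and adjusted p-values, per the file headers. Salmon and DESeq2 are named in the submitters' processing notes, and their versions and the annotation release are not given in the sources used here.

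Since genes are not named in the transcript files, each gene was given the run of up to 60 neighbouring transcripts whose counts gave its deposited mean within a relative tolerance of 1e-09. Among the 16815 genes of mean 5 or more, 16809 were joined, with 99.9% of the reads. The join was tested on simulated counts whose known genes were those it had itself formed, so that test cannot show that the genes are right. Counts were summed per gene and rounded, filtered with filterByExpr, scaled by TMM and compared with edgeR 4.0.16 (quasi-likelihood, robust, no covariate), with Benjamini-Hochberg adjustment over 15655 genes and a threshold of 0.05. The fit was tested on simulated data in which Ikzf1 had the same mean share in both groups. The shift caused by the plasmid transcript was therefore not part of that test. Standard errors were derived from the F statistic, and 95% intervals are normal intervals from them. Starts in the deposited table counted from 0 and are printed from 1. R 4.3.3, DESeq2 1.42.0, limma 3.58.1 and Python 3.11.15 were used. The precision of a gene rests on its counts, 425 to 21290 per library for the members, and intervals cover the spread between these libraries.

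The members and lists were chosen with earlier results of these data known. Named genes were all members, all other NuRD subunits and, from each other list, the 2 largest called rises and falls among genes of mean 1 CPM or more in either group, of which the text gives some, and the 3 genes most like the member of smallest p. Replicate numbers did not pair the libraries. The peak lists are on mm9 and were not used here.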

Additional observations from a re-analysis of the deposited data

Results flagged for a closer look

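Dixon's test for a single outlying library was run on 44 groups of 4 values (CPM of the members and other NuRD subunits, and the paralog ratios), where chance marks about 1 in 20 groups, and 4 groups were marked. In 2 of them the library was Ikzf1 replicate 3. Its Hdac1 to Hdac2 ratio was 0.561, beside 0.517, 0.519 and 0.519 in the other Ikzf1 libraries. Its Mta1 to Mta3 ratio was 1.77, beside 2.16, 2.18 and 2.23. Control replicate 3 had an Mta1 to Mta2 ratio of 0.552, beside 0.611, 0.614 and 0.616 in the other controls. Ikzf1 replicate 4 had 145 CPM of Gatad2a, beside 128, 129 and 130 CPM.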

How the results depend on the processing

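The call that Chd3, Mta3 and Hdac2 were higher held in 18 of 18 alternatives, and 13 of 18 called the same 6 members. Chd3 ranged from 1.80 to 2.08, Mta3 from 0.84 to 1.14 and Hdac2 from 0.12 to 0.41 on the log2 scale. The number of members called was 5 to 6 without 1 library at a time and 5 at an adjusted p of 0.01, and the number of genes called was 8656 to 9058 without 1 library. With unscaled library totals, signs turned for Chd4 (-0.09), Hdac1 (-0.17), Mta1 (-0.15), Mta2 (-0.19), Rbbp7 (-0.01), Gatad2a (-0.12), Gatad2b (-0.08) and Mbd2 (-0.01), while the median of all genes was -0.21, and 8 members passed (3 higher, 5 lower). With limma on log2(TPM + 1), they turned for Chd4 (-0.07), Hdac1 (-0.20), Mta1 (-0.15), Mta2 (-0.20), Mbd3 (-0.08), Gatad2a (-0.18), Gatad2b (-0.20) and Mbd2 (-0.07), with a median of -0.19 and 21% of calls higher. After removing Ikzf1 and rescaling TPM to the original total, an alternative chosen after seeing the data, only Rbbp4 turned (0.01), 6 members were higher and the median was 0.05.

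Replicate numbers were used as a block although deviations of same-numbered libraries had correlations of 0.005, -0.029, -0.019 and -0.051. With the replicate block 8925 genes and 6 members were called. For the paralog ratios, sign flips over the 4 numbered pairs left the differences at -1.89 for Chd4/Chd3, -0.33 for Hdac1/Hdac2, -1.09 for Mta2/Mta3 and -1.04 for Mta1/Mta3 with an exact p of 0.125, the smallest that 4 pairs allow. The Rbbp4/Rbbp7 difference was -0.37 to -0.22 without 1 library at a time and -0.28 from estimated counts, past the threshold there and without Ikzf1 replicate 3. The 4 ratios called in all libraries stayed past it in all 8 such fits, which was fixed in advance. Their groups do not overlap, and the smallest exact permutation p stays at 0.0286 with 3 against 4 libraries. Only the sizes can vary there: -1.96 to -1.83 for Chd4/Chd3, -0.36 to -0.31 for Hdac1/Hdac2, -1.12 to -1.05 for Mta2/Mta3 and -1.08 to -0.96 for Mta1/Mta3. For the member transcripts, 0 shares passed in every alternative, which says nothing about stability because these tests were too small for a single share to pass. The cause of these changes was not tested.

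Estimated counts of overlapping or near-identical transcripts are salmon's division of reads, which was not checked here. Depth limits the least abundant members most, and a p above the threshold does not show that a gene was unaffected.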
